A study of Jaltomata procumbens and Jaltomata herrerae with 23 samples.

Results

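Invertases split sucrose into glucose and fructose, and they are grouped by where they act. Acid invertases work in the cell wall or the vacuole, neutral invertases in the cytosol and in organelles, and small inhibitor proteins bind acid invertases and block them. In nectaries of several plants, sucrose leaves the cells through the SWEET9 exporter and is cut outside them by cell wall invertase, and Arabidopsis plants without CWINV4 make no nectar. The 10 Arabidopsis loci looked for were 4 of the cell wall type, 2 vacuolar, 2 cytosolic and 2 inhibitors, chosen by locus and not by level. Of these, 8 were among the 13170 loci of the table: CWINV4 (AT2G36190), CWINV2 (AT3G52600), CWINV1 (AT3G13790), CWINV3 (AT1G55120), VIN1 (AT1G62660), VIN2 (AT1G12240), CINV2 (AT4G09510) and C/VIF2 (AT5G64620). CINV1 (AT1G35580) and C/VIF1 (AT1G47960) were not analysed here.

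The plants were of 2 species, Jaltomata herrerae and Jaltomata procumbens, relatives of tomato, grown in a plant growth facility. No strain, treatment or mutation is named in the labels. Floral nectaries were dissected by hand before secretion, during it at full anthesis, and after the petals had dropped. Mature leaves were taken beside them. Pre-secretory nectaries were from 24 to 48 hours before anthesis, and secretory ones from 3 to 6 hours after dawn. No hour is listed for post-secretory nectaries or leaves, so time of day may differ along with stage. For herrerae, 3 pre-secretory, 3 secretory, 3 post-secretory and 2 leaf libraries were used, and for procumbens 3, 2, 2 and 2, or 20 of 23. Whether the libraries of a group came from separate plants is not stated, and the p-values then cover the spread among these libraries only, which may be technical.

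Levels are given as the authors deposited them, in TPM, a share of the library's transcripts corrected for transcript length. Changes are differences of log2(rescaled TPM + 1) with their SE, tested with limma over 13075 loci, and a locus was called at a Benjamini-Hochberg adjusted p under 0.05. Rescaling by median ratios was used because the 3 loci highest on average in herrerae nectaries took 10.9% to 48.8% of the listed TPM there. They took at most 6.79% in all other libraries, but they were chosen by their herrerae nectary levels. Other loci stood high elsewhere, such as RBCS1A at 86346 TPM in herrerae leaf B. On the deposited scale, without rescaling, the median locus lay 0.842 lower (log2) in herrerae than in procumbens secretory nectaries. In herrerae it lay 0.862 higher after than during secretion. Member values whose call differed on the deposited scale are named beside the result. A change of direction between uncalled values is not always named. A difference in size alone is given for some values and not for all. In these hand-dissected samples, fewer cells of a type and less RNA per cell cannot be told apart.

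Among the 20 libraries, 19 had their highest correlation with their own group, and procumbens pre-secretory C was closer to the secretory group (r = 0.955) than to its own (0.935). The 3 libraries left out carried the letter A in the procumbens pre-secretory, post-secretory and leaf groups, and their correlations with these groups were 0.463, 0.823 and 0.711. Their highest correlations were 0.886 with herrerae leaf, 0.976 with procumbens secretory nectary and 0.936 with procumbens post-secretory nectary. The nectary markers SWEET9 and CRABS CLAW together stood at 9780 to 14430 TPM in herrerae and 30602 to 38776 TPM in procumbens secretory nectaries, against 284 to 551 and 15 to 33 TPM in leaves. The 5 leaf mesophyll markers together stood at 36659 to 102014 TPM in leaves and at 96 to 211 TPM in secretory nectaries. After secretion they stood at 2189 to 6171 TPM in herrerae and 1546 to 2216 TPM in procumbens. Before secretion they stood at 131 to 184 TPM in procumbens, but at 964, 168 and 4267 TPM in herrerae A, B and C. The sum in pre-secretory C was thus at a post-secretory level, but RBCS1A alone made up 3718 TPM of it. LHCB1.1, LHCB2.1 and PSBP1 stood at 251, 67 and 74 TPM there. After secretion in herrerae these 3 stood higher, at 1025 to 1808, 523 to 1057 and 238 to 410 TPM. RCA went the other way, with 157 TPM in pre-secretory C and 45 to 103 TPM after secretion. The 3 vascular markers together stood at 8 to 10 TPM during and 29 to 32 TPM after secretion in herrerae, and at 6 to 11 and 18 to 25 TPM in procumbens. The sum of the 4 carpel and ovule markers was 302 to 488 TPM during and 199 to 244 TPM after secretion in herrerae. In procumbens it was 725 to 806 and 316 to 365 TPM. This lower sum came mainly from SHP1, at 236 to 401 and 73 to 136 TPM in herrerae and 710 to 799 and 302 to 326 TPM in procumbens. SHP2 also fell in herrerae and was listed at 0 in procumbens. STK was higher after secretion in herrerae (39 to 65 and 83 to 116 TPM). ANT was higher after it in both species, from 0 to 7 to 20 TPM in herrerae and 3 to 5 TPM in procumbens. The carpel and ovule markers thus had no common direction. The part of these markers in the stage differences below was not tested.

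CWINV4 and CWINV2, both cell wall invertases, carried most of the TPM of the 7 invertase members in nectaries, and CWINV2 fell after secretion in both species. C/VIF2, the inhibitor, rose in herrerae when secretion ended, where the mesophyll and vascular marker sums were also higher. Across 12 comparisons the 8 members gave 41 calls among 96 values, or 42.7%, beside 41.6% over all loci, so calls were about as frequent among the members as among all loci. Without any 1 library of the compared groups, 28 of the 41 calls held each time, and 24 held with all 23 libraries.

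At the onset of secretion CINV2 rose in herrerae, and VIN1 rose and C/VIF2 fell in procumbens. Both rises were lost on the deposited scale, and the limits of each call are given with the member below. In herrerae, secretory against pre-secretory nectary, 1 of 8 members rose and 0 fell, beside 15.4% and 18.1% of all loci tested. The split was 0 higher and 1 lower on the deposited scale, beside 3.85% and 21.5%. In procumbens 1 of 8 rose and 1 fell, beside 17.3% and 18.3% of all loci, and 0 and 1 did on the deposited scale, beside 6.48% and 17.4%. The median change of the members was 0.34 in herrerae and 0.27 in procumbens, against -0.04 and 0 over all loci. With 8 members, counts of 0 or 1 are near these shares and say nothing particular about the members.

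At the end of secretion CWINV2, VIN1 and CINV2 fell in both species, and CWINV3 fell and C/VIF2 rose in herrerae. On the deposited scale the falls of VIN1 in herrerae (-0.02) and of CINV2 in procumbens (-0.77) were not called. In herrerae, post-secretory against secretory nectary, 1 of 8 rose and 4 fell, beside 32.9% and 25.5% of all loci, and 1 and 3 did on the deposited scale, beside 53.9% and 5.43%. In procumbens 0 of 8 rose and 3 fell, beside 21.4% and 16.9% of all loci, and 1 and 2 did on the deposited scale, beside 25.4% and 4.95%. In either direction 58.4% of all loci were called in herrerae and 38.3% in procumbens, near the 5 and 3 of 8 members. The median change of the members was -1.35 in herrerae and -0.88 in procumbens, while all loci had medians of 0.12 and 0.06. Both end comparisons share the secretory libraries with the onset comparisons.

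Against leaf, the secretory nectary of herrerae had 4 of 8 members higher and 2 lower, beside 24.6% and 33.1% of all loci, and 3 and 2 on the deposited scale, beside 10.1% and 32.9%. In procumbens 5 of 8 were higher and 1 lower, beside 26.9% and 32.6% of all loci, and the same numbers were on the deposited scale, beside 30.1% and 23%. The median difference of the members was 1.71 in herrerae and 1.90 in procumbens, against -0.06 and -0.03 over all loci. These comparisons use the same secretory libraries again.

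**Figure D1:**
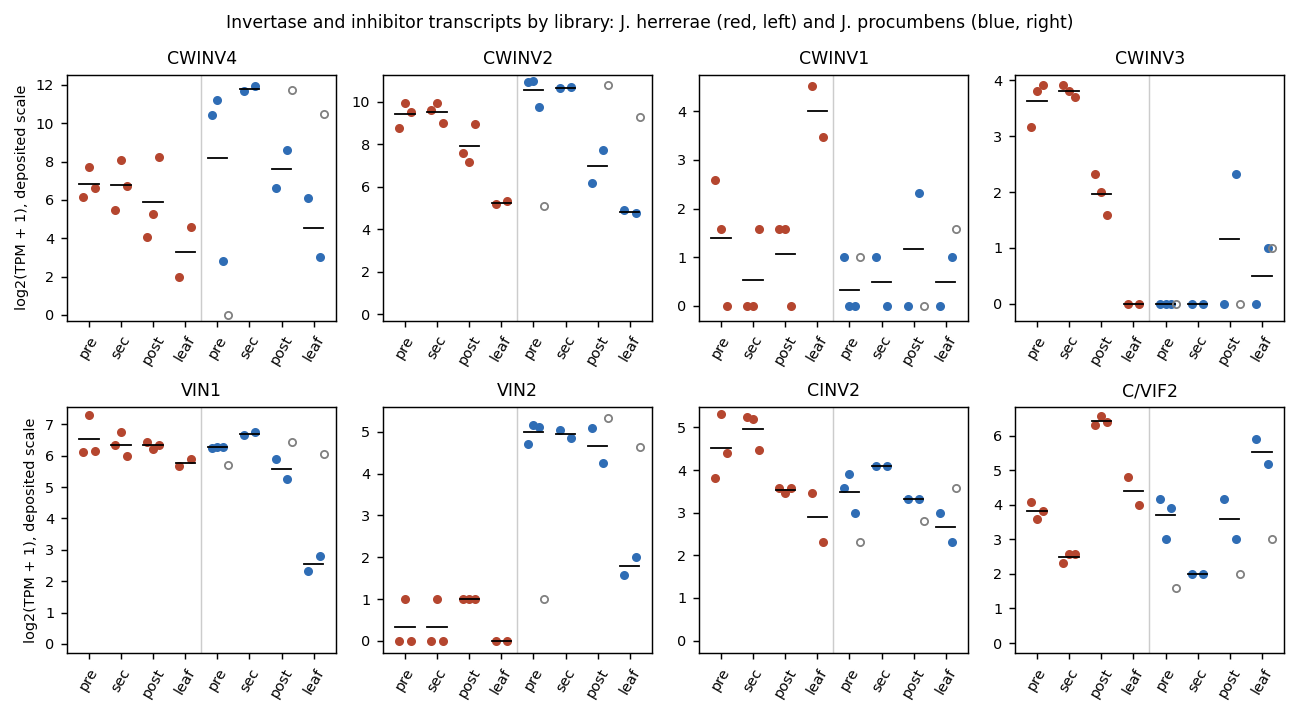
Level of each of the 8 members by group, in 1 panel a member, as log2(deposited TPM + 1). Filled points are the 20 libraries used, open grey points the 3 procumbens libraries left out, and the black line is the mean of the log2 values of a group. CWINV4 and CWINV2 reach the highest levels, VIN2 separates the species, and C/VIF2 is lowest in both secretory groups.

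CWINV4 is the cell wall invertase that Arabidopsis and Brassica nectaries need for secretion. In herrerae it stood at 69, 208 and 98 TPM in pre-secretory A, B and C, 43, 272 and 104 TPM in secretory A, B and C, and 16, 38 and 300 TPM in post-secretory A, B and C. The 2 leaf libraries of herrerae had 3 and 23 TPM. All 3 nectary stages of herrerae overlapped, and post-secretory C was the highest herrerae library for this gene. In procumbens CWINV4 stood at 1402, 2404 and 6 TPM in pre-secretory B, C and D, 3262 and 3938 TPM in secretory A and B, 392 and 98 TPM in post-secretory B and C, and 68 and 7 TPM in leaf B and C. Procumbens secretory nectaries were thus the highest group and separate from every other, while pre-secretory D lay at the level of a leaf. The libraries left out had 0 TPM in pre-secretory A, 3453 TPM in post-secretory A and 1419 TPM in leaf A.

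The spread of CWINV4 within groups was wide, and 1 of its differences passed the test: it was higher in procumbens secretory nectary than in leaf by 6.83 (SE 2.09, limma adjusted p = 0.0105). Without leaf C that difference was 5.40 with an adjusted p of 0.094, without leaf B it was 8.27, and with all 23 libraries it was 5.11 with an adjusted p of 0.149. The procumbens differences between secretory and pre-secretory nectary (3.85, SE 1.91, limma adjusted p = 0.128) and between post-secretory and secretory nectary (-4.58, SE 2.09, 0.0967) did not pass. Without pre-secretory C, the former became 5.43 with an adjusted p of 0.0321. In herrerae the difference from leaf was 3.87 (SE 1.91, limma adjusted p = 0.0954). The herrerae stage differences were 0.39 at onset and -1.79 at the end, which are -0.07 and -0.89 on the deposited scale. The secretory nectaries of the 2 species did not pass (herrerae minus procumbens -4.0, SE 1.91, limma adjusted p = 0.096), although the deposited values of 43 to 272 and 3262 to 3938 TPM did not overlap. On the deposited scale that difference passed, at -5.05 with an adjusted p of 0.0187.

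CWINV2 is a second cell wall invertase, which in Arabidopsis is known from flowers. Its levels in herrerae were 437, 965 and 725 TPM before secretion, 767, 984 and 517 TPM during it, and 191, 141 and 493 TPM after it, in libraries A, B and C, with 35 and 39 TPM in leaves. In procumbens they were 1969, 1997 and 860 TPM in pre-secretory B, C and D, 1606 and 1626 TPM in secretory A and B, 212 and 71 TPM in post-secretory B and C, and 29 and 26 TPM in leaf B and C. Pre-secretory and secretory values overlapped in both species, post-secretory values lay below secretory ones, and leaves were lowest throughout. The libraries left out had 33 TPM in pre-secretory A, 1747 TPM in post-secretory A and 627 TPM in leaf A.

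After secretion CWINV2 fell by 2.53 in herrerae (SE 0.44, limma adjusted p = 0.00019). In procumbens it fell by 4.1 (SE 0.54, limma adjusted p = 6.85e-05). The procumbens change was -3.34 without post-secretory C and -4.87 without post-secretory B. With all 23 libraries the adjusted p was 0.14 in herrerae and 0.444 in procumbens, where the change became -2.64, and on the deposited scale the herrerae change was -1.62 (0.00626). Between the species the difference in this fall was 1.58 (SE 0.70, limma adjusted p = 0.123) and did not pass, but without procumbens post-secretory B it was 2.34 with an adjusted p of 0.0438. CWINV2 was higher in secretory nectary than in leaf by 4.65 in herrerae (SE 0.50, limma adjusted p = 1.23e-06) and by 5.40 in procumbens (SE 0.54, limma adjusted p = 1.04e-06, and 4.16 with 0.0444 with all 23 libraries). No onset change passed, with 0.57 in herrerae (SE 0.44, limma adjusted p = 0.349) and 0.35 in procumbens (adjusted p = 0.627), which was -0.12 without pre-secretory D. On the deposited scale these onset changes were 0.12 in herrerae and 0.11 in procumbens.

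CWINV1 is a cell wall invertase of leaves in Arabidopsis. It stood at 22 and 10 TPM in herrerae leaf A and B, at 5, 2 and 0 TPM in herrerae pre-secretory A, B and C, and at 0 to 2 TPM in the 6 later herrerae nectary libraries. In procumbens it ranged from 0 to 4 TPM in the 9 libraries used, with 0 and 1 TPM in leaf B and C. Leaves of herrerae were the highest group and separate from the others. Herrerae secretory nectaries and procumbens leaves stood at 0 to 2 TPM, so the sizes of the differences below depend on the pseudocount of 1. Herrerae secretory nectary was below leaf (log2 difference -3.54, SE 0.90, limma adjusted p = 0.00322, and -4.41 without secretory C). Leaves of herrerae were above those of procumbens by 3.78 (SE 0.98, limma adjusted p = 0.00651), a call lost without herrerae leaf A (0.0554) or procumbens leaf B (0.0624), while the difference was 4.38 without procumbens leaf C.

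CWINV3 encodes a protein of the cell wall invertase family that in Arabidopsis splits fructans instead of sucrose. In herrerae it stood at 8, 13 and 14 TPM before secretion, 14, 13 and 12 TPM during it, and 4, 3 and 2 TPM after it, and it was listed at 0 in both leaves. In procumbens it was listed at 0 in all pre-secretory and secretory libraries, at 4 and 0 TPM in post-secretory B and C, and at 0 and 1 TPM in leaf B and C. Herrerae nectaries before and during secretion thus stood apart from every procumbens library. Its level in herrerae fell by 2.66 after secretion (SE 0.39, limma adjusted p = 3.73e-05), or by 1.84 on the deposited scale (0.00107). No fold is given against groups listed at 0, and limma called herrerae secretory nectary above its leaves (adjusted p = 4.03e-07). Herrerae was called above procumbens at the same stage, before (limma adjusted p = 6e-07) and during secretion (4.51e-07).

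VIN1 is a vacuolar invertase. In herrerae it stood at 69, 156 and 70 TPM before secretion, 80, 106 and 62 TPM during it, 86, 73 and 81 TPM after it, and 50 and 58 TPM in leaves. In procumbens it stood at 75, 77 and 77 TPM in pre-secretory B, C and D, 100 and 107 TPM in secretory A and B, 37 and 59 TPM in post-secretory B and C, and 4 and 6 TPM in leaf B and C. The procumbens groups did not overlap with one another and were highest during secretion, while the herrerae nectary stages overlapped. The libraries left out had 51 TPM in pre-secretory A, 85 TPM in post-secretory A and 66 TPM in leaf A.

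VIN1 was higher in procumbens secretory nectary than in leaf by 3.73 (SE 0.26, limma adjusted p = 3.85e-08, and 2.81 with 0.0231 with all 23 libraries) and fell by 1.52 after secretion (SE 0.26, limma adjusted p = 0.000478, and 0.467 with all 23 libraries). Its rise at onset in procumbens was 0.67 (SE 0.24, limma adjusted p = 0.04), and this call was lost on the deposited scale (0.43, 0.377), with all 23 libraries (0.5) and without pre-secretory B (0.09), pre-secretory D (0.114), secretory A (0.124) or secretory B (0.167). In herrerae VIN1 fell by 0.91 after secretion (SE 0.21, limma adjusted p = 0.00194), while on the deposited scale the change was -0.02 with an adjusted p of 1, and with all 23 libraries the adjusted p was 0.209. The herrerae nectary was above leaf by 0.94 (SE 0.24, limma adjusted p = 0.00326), a call lost on the deposited scale (0.58, 0.181), with all 23 libraries (0.234) and without leaf A (0.0522).

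VIN2 is the other vacuolar invertase, and it was almost confined to procumbens among the 20 libraries. In herrerae it stood at 0 or 1 TPM in all 9 nectary libraries and was listed at 0 in both leaves. In procumbens it stood at 25, 35 and 34 TPM in pre-secretory B, C and D, 32 and 28 TPM in secretory A and B, 18 and 33 TPM in post-secretory B and C, and 2 and 3 TPM in leaf B and C. The procumbens nectary stages overlapped and all lay above leaf. Of the libraries left out, pre-secretory A had 1 TPM, post-secretory A 39 TPM and leaf A 24 TPM. Procumbens secretory nectary was above leaf by 2.76 (SE 0.43, limma adjusted p = 5.62e-05, and 0.0826 with all 23 libraries).

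CINV2 is a neutral invertase of the cytosol. In herrerae it stood at 13, 39 and 20 TPM before secretion, 37, 36 and 21 TPM during it, 11, 10 and 11 TPM after it, and 10 and 4 TPM in leaves. In procumbens it stood at 11, 14 and 7 TPM in pre-secretory B, C and D, 16 and 16 TPM in secretory A and B, 9 and 9 TPM in post-secretory B and C, and 7 and 4 TPM in leaf B and C. Secretory libraries lay above post-secretory and leaf libraries in both species, and above pre-secretory ones in procumbens alone.

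CINV2 was the member that rose at onset in herrerae, by 0.92 (SE 0.27, limma adjusted p = 0.0157), with overlapping deposited values. That call was lost on the deposited scale (0.47, 0.372) and without pre-secretory A (0.0635) or secretory B (0.051). The procumbens difference at onset was 0.79 (SE 0.30, limma adjusted p = 0.051), and without pre-secretory C it was 1.05 with an adjusted p of 0.00966. After secretion CINV2 fell by 2.30 in herrerae (SE 0.27, limma adjusted p = 5.33e-06), or by 1.43 on the deposited scale (0.00272). In procumbens it fell by 1.1 (SE 0.33, limma adjusted p = 0.0153). The procumbens fall was lost on the deposited scale (adjusted p = 0.214), with all 23 libraries (0.372), and without any 1 of its 4 libraries, secretory A, secretory B, post-secretory B or post-secretory C (0.0588 to 0.0694). Above leaf it stood by 2.48 in herrerae (SE 0.30, limma adjusted p = 4.39e-06) and by 1.03 in procumbens (SE 0.33, limma adjusted p = 0.0129), the latter lost without secretory A (0.0511) or leaf C (0.107).

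C/VIF2 is an inhibitor that in Arabidopsis acts on both cell wall and vacuolar invertase. In herrerae it stood at 16, 11 and 13 TPM before secretion, 4, 5 and 5 TPM during it, 78, 94 and 83 TPM after it, and 27 and 15 TPM in leaves. In procumbens it stood at 17, 7 and 14 TPM in pre-secretory B, C and D, 3 and 3 TPM in secretory A and B, 7 and 17 TPM in post-secretory B and C, and 59 and 35 TPM in leaf B and C. Secretory nectaries were lowest in both species and did not overlap with any other group of their species. The highest group was the post-secretory nectary in herrerae and the leaf in procumbens. The libraries left out had 2 TPM in pre-secretory A, 3 TPM in post-secretory A and 7 TPM in leaf A.

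The rise of C/VIF2 after secretion in herrerae was 3.12 (SE 0.37, limma adjusted p = 6.87e-06), or 3.92 on the deposited scale. The procumbens difference was 1.18 (SE 0.46, limma adjusted p = 0.0542), but it passed on the deposited scale (1.58, 0.0066) and without post-secretory B (1.74, 0.0211). At onset it fell by 1.42 in procumbens (SE 0.42, limma adjusted p = 0.0167), a call lost with all 23 libraries (0.378) and without pre-secretory B (0.0667), pre-secretory D (0.0515), secretory A (0.085) or secretory B (0.0838). The herrerae onset difference was -0.96 (SE 0.37, limma adjusted p = 0.0594), and on the deposited scale it passed, at -1.33 with 0.00851. It passed also without pre-secretory B (0.0132) or secretory C (0.0437). Against leaf C/VIF2 was lower by log2 differences of -3.89 in procumbens (SE 0.46, limma adjusted p = 4.5e-06, and -2.83 with 0.0251 with all 23 libraries) and -1.62 in herrerae (SE 0.42, limma adjusted p = 0.0036), the latter lost without herrerae leaf A (0.0566) and with all 23 libraries (0.11).

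**Figure D2:**
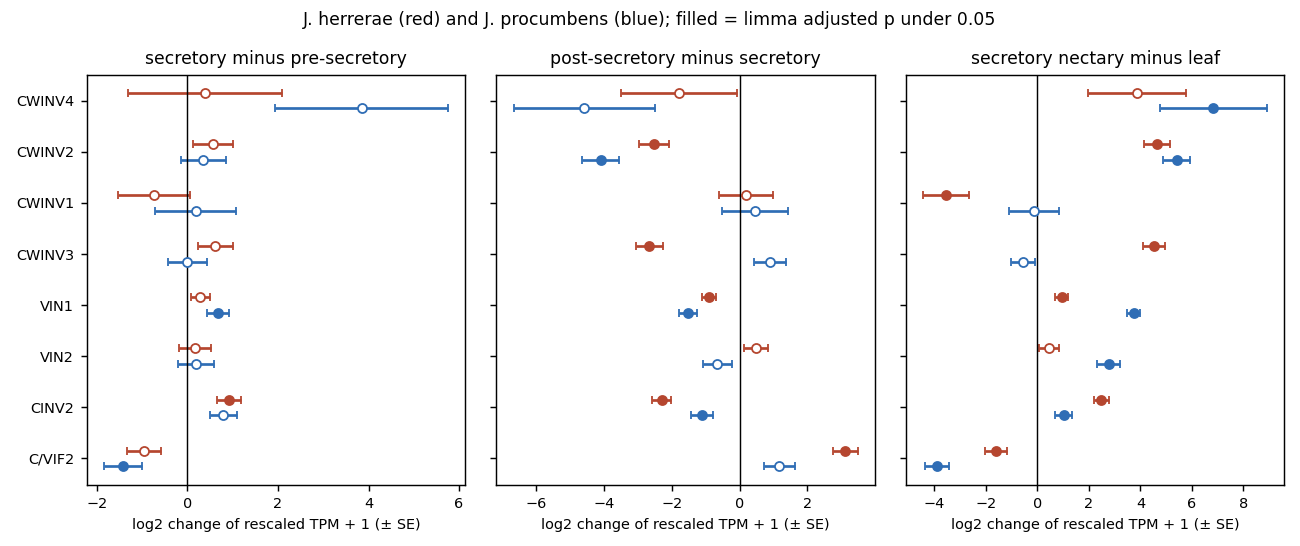
Log2 change of each member in the comparisons between stages and with leaf, herrerae and procumbens side by side, on the log2(rescaled TPM + 1) scale. Points are estimates over the 20 libraries, bars are 1 SE, and filled points have an adjusted p under 0.05. The widest bars are those of CWINV4, and after secretion C/VIF2 lies above 0 while CWINV2 and CINV2 lie below it in both species.

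The sums by compartment put these levels beside each other. The 4 cell wall members together stood at 848 ± 334.6 TPM before secretion, 909.3 ± 325.5 TPM during it and 397.3 ± 344.7 TPM after it in herrerae (SD, n = 3 each). In procumbens the sums were 2880 ± 1818 TPM before secretion (SD, n = 3), 5216 ± 491.4 TPM during it (SD, n = 2) and 390.5 ± 313.2 TPM after it (SD, n = 2). Leaves had 66 ± 8.485 TPM in herrerae and 66 ± 43.84 TPM in procumbens (SD, n = 2 each). Of the summed TPM of the 7 invertase members, which leaves out the other invertase loci below, cell wall members made up 88.6% in herrerae and 97.25% in procumbens secretory nectaries, and 51.85% in herrerae leaves.

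Which cell wall member led differed between the species in these libraries. CWINV4 made up 5.22% to 21.4% of the cell wall sum in herrerae secretory nectaries and 68.9% in procumbens ones, and the remainder was almost all CWINV2. Before secretion in procumbens the share of CWINV4 ran from 0.693% to 54.6% between libraries. The inhibitor C/VIF2 equalled 0.5073% of the summed acid invertase TPM in secretory and 23.95% in post-secretory nectaries of herrerae, where the 3 libraries ran from 9.46% to 36.4%. In procumbens it equalled 0.0563% in secretory nectaries (0.0526% and 0.06%), and 1.05% and 6.51% in the 2 post-secretory libraries. In leaves it equalled 57.3% and 79.5% in procumbens and 11.5% and 24.5% in herrerae. No test was made of these sums and shares, which describe transcripts and not enzyme activity.

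**Figure D3:**
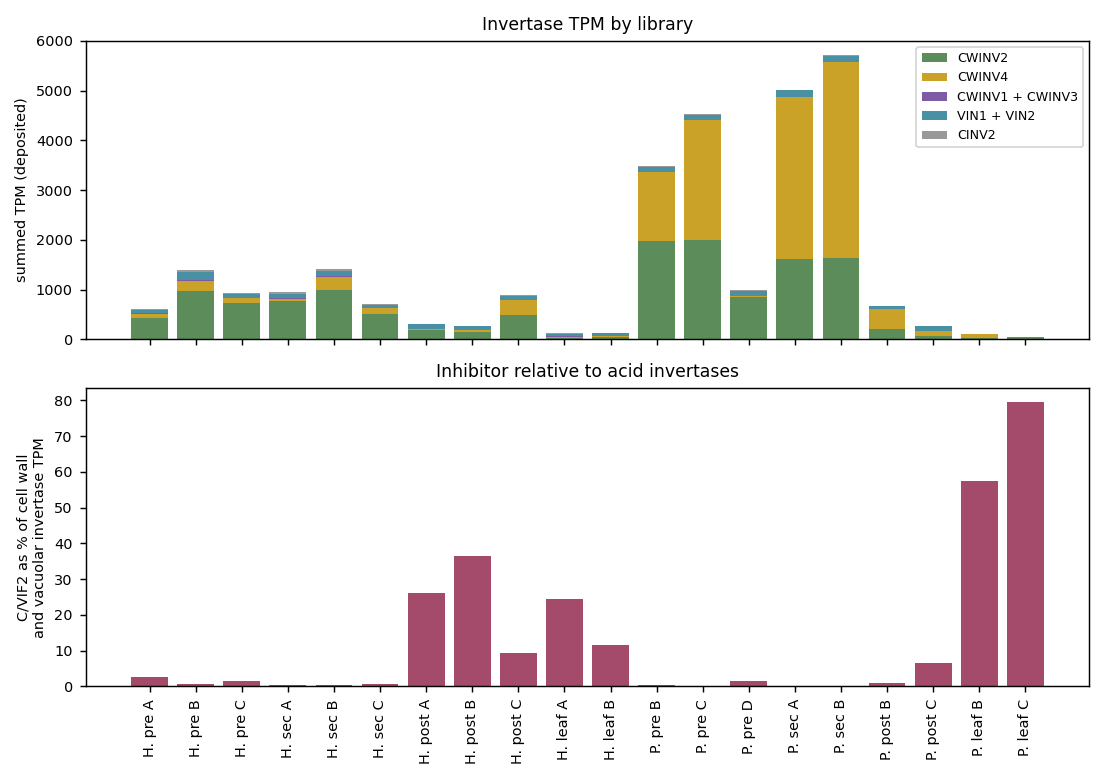
Upper panel, stacked deposited TPM of the cell wall, vacuolar and cytosolic invertase members in each library, and lower panel, C/VIF2 as a percentage of the summed cell wall and vacuolar invertase TPM. Libraries are ordered by group. Procumbens secretory nectaries have the largest sums, 5216 TPM on average for the cell wall members, and the inhibitor percentage is lowest in secretory nectaries of both species.

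Levels of the members were also set against each other between the species. Whether the same Jaltomata transcript stands behind a locus in both species is not given in the sources used here, so a difference in level and a difference in matching to the locus cannot be told apart. Before secretion 3 of 8 members were higher in herrerae and 1 lower, beside 24.7% and 23.8% of all loci, and 2 and 2 were on the deposited scale, beside 10.3% and 48.4%. During secretion 4 of 8 were higher and 1 lower, beside 24.2% and 24.3%, and 1 and 2 were on the deposited scale, beside 8.47% and 49.7%. After secretion 3 of 8 were higher and 1 lower, beside 23.7% and 22.9%, and 1 and 1 were on the deposited scale, beside 12.7% and 33.3%. In leaf 2 of 8 were higher and 1 lower, beside 20.7% and 18.3%, and 2 and 2 were on the deposited scale, beside 11.1% and 15.7%.

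VIN2 was lower in herrerae at each nectary stage, by log2 differences of -4.19 before secretion (SE 0.35, limma adjusted p = 8.07e-08), -4.22 during it (SE 0.39, 3.03e-07) and -3.08 after it (SE 0.39, 1.17e-05). Herrerae nectaries had 0 or 1 TPM of VIN2, so the sizes of these differences depend on the pseudocount of 1. The pre-secretory difference was -3.37 with all 23 libraries (0.00371), and the post-secretory one -3.67 on the deposited scale. These were the only calls of a lower level in herrerae nectary on the rescaled values. VIN1, the other vacuolar member, was higher in herrerae leaf by 3.47 (SE 0.26, limma adjusted p = 3.55e-08), or 2.55 with all 23 libraries (0.00682). In nectaries VIN1 was higher in herrerae by 1.08 before (SE 0.21, limma adjusted p = 0.000673), 0.69 during (0.0265) and 1.29 after secretion (0.000435), but on the deposited scale the adjusted p was 0.481, 0.379 and 0.0704, and the secretory difference turned to -0.35. With all 23 libraries these adjusted p-values for VIN1 were 0.171, 0.446 and 0.249. The secretory difference was also lost without herrerae secretory B (0.0893) or C (0.0547), or without procumbens secretory A (0.13) or B (0.0858).

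CINV2 was higher in herrerae by 1.77 before secretion (SE 0.27, limma adjusted p = 5.69e-05) and by 1.90 during it (SE 0.30, 8.55e-05). The former was 1.01 (0.025) on the deposited scale, where the latter did not pass (0.88, 0.0728). C/VIF2 was higher in herrerae by 1.37 during secretion (SE 0.42, limma adjusted p = 0.0135) and by 3.31 after it (SE 0.42, 1.14e-05). The secretory difference of C/VIF2 was lost on the deposited scale (0.50, 0.267), with all 23 libraries (0.213) and without herrerae secretory C (0.0514) or procumbens secretory A (0.0653) or B (0.0671). CWINV2 was higher in herrerae after secretion by 1.49 (SE 0.50, limma adjusted p = 0.0224) with overlapping values, a call lost on the deposited scale (0.94, 0.15), with all 23 libraries (0.04, 0.989) and without herrerae post-secretory C (0.0976) or procumbens post-secretory C (0.72, 0.321), while it was 2.25 without procumbens post-secretory B. On the deposited scale CWINV2 was lower in herrerae before secretion (-1.15, 0.0418; -0.31 rescaled), and C/VIF2 was lower in its leaves (-1.13, 0.0474; -0.90 rescaled). On the rescaled values of the 20 libraries CWINV4 was not called in any species comparison. Its pre-secretory difference of -0.55 became -3.25 with an adjusted p of 0.0338 without procumbens pre-secretory D, and 1.04 without pre-secretory C. On the deposited scale that pre-secretory difference was -1.34 and was not called.

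The species difference in the stage changes themselves was tested next. In the onset of secretion 0 of 8 members were called by limma, beside 13.3% of all loci, and 0 members had an unadjusted p under 0.05. In the end of secretion 2 of 8 were called, beside 20.9% of all loci. CWINV3 was the one that fell more in herrerae, with a difference of -3.55 (SE 0.61, limma adjusted p = 0.00115). In procumbens it was listed at 0 during secretion, so this size depends on the pseudocount of 1, and it was -4.40 without procumbens post-secretory C and -2.65 without post-secretory B. C/VIF2 rose more in herrerae, by 1.94 (SE 0.59, limma adjusted p = 0.0303), a call lost with all 23 libraries (0.276) and in 6 of 10 fits that left out 1 library, with adjusted p-values between 0.0124 and 0.165 over the 10. Those 6 left out herrerae secretory A, secretory B or post-secretory B, or procumbens secretory A, secretory B or post-secretory B.

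SWEET9 (AT2G39060), the sucrose exporter of nectaries, served as a measure of the secretory state that the choice of members did not use. It stood at 2578, 6740 and 6283 TPM before, 10399, 12296 and 8289 TPM during and 731, 396 and 850 TPM after secretion in herrerae. In procumbens it stood at 16197, 26019 and 2904 TPM in pre-secretory B, C and D, 28548 and 36418 TPM in secretory A and B, and 3656 and 806 TPM in post-secretory B and C. Procumbens pre-secretory D thus had the lowest SWEET9 level of its group as well as the lowest CWINV4 level.

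Over the 9 nectary libraries of herrerae, Pearson's r with SWEET9 on the log2 scale was 0.955 for CWINV2, 0.961 for CWINV3, 0.978 for CINV2, 0.894 for VIN1, 0.579 for CWINV4, -0.093 for CWINV1, -0.443 for VIN2 and -0.946 for C/VIF2. Over the 7 nectary libraries of procumbens it was 0.915 for CWINV2, 0.889 for CINV2, 0.83 for CWINV4, 0.768 for VIN1, 0.447 for VIN2, -0.028 for CWINV1, -0.282 for CWINV3 and -0.625 for C/VIF2. These values describe libraries that share their stage, so they largely restate the stage differences, and no p is given. CWINV2 followed SWEET9 in both species, and C/VIF2 ran opposite to it.

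**Figure D4:**
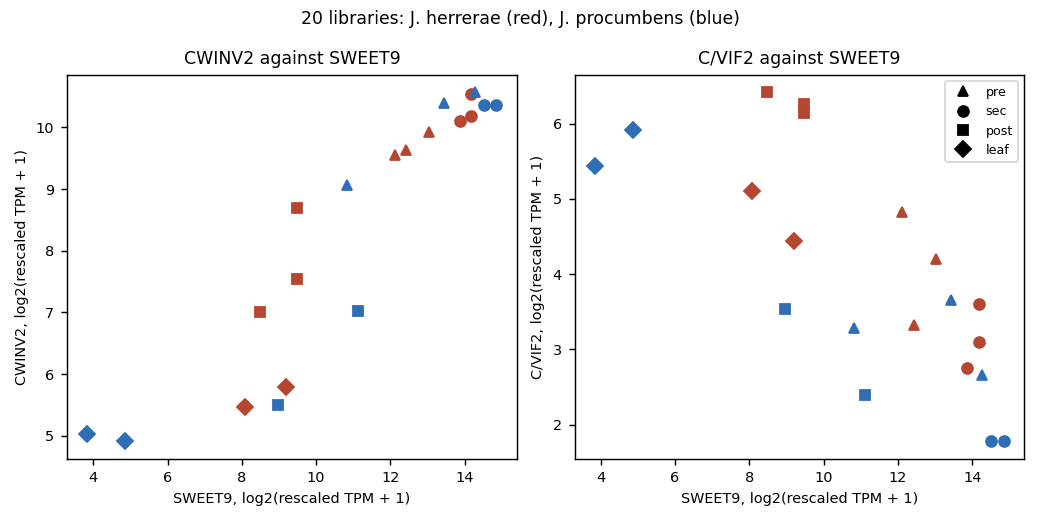
CWINV2 and C/VIF2 against SWEET9, 1 panel each, as log2(rescaled TPM + 1) in the 20 libraries. Colour gives the species and marker shape the stage or leaf. CWINV2 is higher where SWEET9 is higher, with r = 0.955 over herrerae and 0.915 over procumbens nectary libraries, and C/VIF2 is lower there, with r = -0.946 and -0.625.

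Other genes of sucrose use were read from 6 lists with 31 of 47 loci in the table. Their counts stand beside the shares of all loci called higher and lower: 15.4% and 18.1% at onset and 32.9% and 25.5% at the end in herrerae, and 17.3% and 18.3% at onset and 21.4% and 16.9% at the end in procumbens. On the deposited scale these shares in herrerae were 3.85% and 21.5% at onset and 53.9% and 5.43% at the end. In procumbens they were 6.48% and 17.4% at onset and 25.4% and 4.95% at the end. With 4 to 7 loci a list, the counts below were not tested against these shares and are not read as traits of a list. Of 4 other invertase loci, 1 rose and 2 fell at onset in herrerae, and 2 rose and 0 fell in procumbens, where the deposited scale gave 1 and 0. At the end 1 rose and 1 fell in each species, against 2 and 1 in herrerae and 0 and 1 in procumbens on the deposited scale. The mitochondrial neutral invertase A/N-InvA (AT1G56560) rose at onset by 1.83 in herrerae (SE 0.45, limma adjusted p = 0.00611) and by 2.76 in procumbens (SE 0.50, limma adjusted p = 0.00153). At the end it changed by -2.35 (limma adjusted p = 0.000402) and -2.13 (0.00706), with mean levels of 12.3, 32.3 and 11 TPM before, during and after secretion in herrerae and 18.3, 85 and 24.5 TPM in procumbens.

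Sucrose synthases, which split sucrose with UDP, had 1 of 4 loci higher and 0 lower at onset in each species, and 0 of 4 higher in each at the end with 2 lower in herrerae and 1 in procumbens. On the deposited scale 0 of 4 changed at onset in either species, and 1 was lower in each at the end. Of 5 sucrose phosphate synthase and phosphatase loci, which make sucrose, 0 rose and 3 fell at the end in each species (0 and 3, and 0 and 2, on the deposited scale), and 0 rose and 1 fell at onset. The herrerae onset count was 0 and 0 on the deposited scale. Of 7 SWEET loci, sugar exporters, 3 rose and 0 fell at onset in herrerae, and 1 rose and 0 fell in procumbens, with 1 and 0 in each on the deposited scale. At the end 0 rose and 3 fell in herrerae, and 1 rose and 4 fell in procumbens (0 and 3, and 1 and 3, on the deposited scale). SWEET9 fell by 4.93 in herrerae (SE 0.73, limma adjusted p = 4.1e-05). In procumbens it fell by 4.63 (SE 0.89, limma adjusted p = 0.00098).

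Of 5 hexose importers, which take up the products of invertase, 2 rose and 2 fell at the end in herrerae, and 2 rose and 1 fell in procumbens (2 and 1, and 2 and 0, on the deposited scale). STP1, a hexose importer of the plasma membrane, rose by 2.18 (limma adjusted p = 0.00141) and 3.48 (0.000466). Of 6 hexokinases and fructokinases, which phosphorylate hexoses, 1 rose and 2 fell in herrerae, and 0 rose and 2 fell in procumbens (3 and 1, and 0 and 1, on the deposited scale). HXK1, a hexokinase that also senses glucose, changed by -2.50 (limma adjusted p = 6.54e-07) and -1.71 (0.000273). With all 23 libraries the procumbens changes of A/N-InvA, SWEET9, STP1 and HXK1 at the end of secretion did not pass (adjusted p = 0.372, 0.572, 0.467 and 0.42), nor did those of SWEET9 (0.0503) and STP1 (0.0989) in herrerae.

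The loci most like each member were ranked by Pearson's r of log2 values over the 20 libraries, among loci with a mean of at least 5 TPM. CWINV2 was followed most closely by AT5G63530 (r = 0.966) and AT2G36580 (0.96), and CWINV4 by AT2G18170 (0.871) and AT5G44440 (0.859). VIN2 was followed by AT5G38860 (0.967) and AT2G14260 (0.959), and VIN1 by AT2G29080 (0.947) and AT3G51030 (0.93). For CINV2 they were AT3G46450 (0.955) and AT4G25700 (0.946), for CWINV3 AT5G02580 (0.951) and AT1G49390 (0.943), and for CWINV1 AT3G48300 (0.798) and AT4G38470 (0.783). C/VIF2 was most like AT5G50400 (0.961) and AT5G38970 (0.933). CWINV4 and CWINV1 thus had weaker nearest loci than the other 6 members.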

How the data were processed

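RNA libraries (TruSeq stranded mRNA, 150 bp paired ends) of nectary and leaf were made per the labels' protocols, and kallisto 0.46.1 is named in the submitters' processing notes. The deposited values are a score: TPM that the authors rounded to whole numbers, for 13170 Arabidopsis loci. Neither the reference, nor how Jaltomata transcripts were assigned to and summed over loci, is given in the sources used here. Read depth cannot be recovered from TPM, and the precision of low values is unknown. Totals per library were 542947 to 779099 TPM, with 11331 to 12449 loci at 1 TPM or more.

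Groups came from the labels, and 3 of 23 libraries were left out as named in the results. The members, the lists and this choice were made with earlier results of these data known. TPM was rescaled by median ratios over 9613 loci above 0 in all 20 libraries. The 13075 loci with at least 1 TPM in 2 libraries were fitted on log2(TPM + 1) with limma 3.58.1 (R 4.3.3), using a mean for each of 8 groups, a variance trend and 12 residual degrees of freedom. P-values were adjusted (Benjamini-Hochberg) over all loci in each of 12 comparisons. A locus has 1 variance over all groups, so the spread in 1 species also enters the SE of the other. The rescaling and limma steps were run on simulated data, with the same noise at every locus and changes in herrerae secretory libraries only. That setting lacked the shifts in scale between libraries and the unequal spread of the real data, so it does not test them. All members were described, and at most 2 loci most like each were named.

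The alternatives were all 23 libraries, the deposited scale, removal of the 3 loci highest in herrerae nectaries, 0.1 as pseudocount and no filter. Further ones were loci with a mean of 5 TPM or more, a replicate block, fits to the compared groups only, and omission of each library. On the deposited scale the share of higher calls among all called loci moved from 46% to 15.2% for herrerae onset, from 56.4% to 90.8% for herrerae end, and from 49.9% to 14.6% for the secretory species comparison. Gene symbols come from hand-written lists. Python 3.11.15, pandas 2.3.3, numpy 2.4.6 and matplotlib 3.10.9 were used.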

Additional observations from a re-analysis of the deposited data

Results flagged for a closer look

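VIN1 stood at 51 TPM in procumbens pre-secretory A, against 75, 77 and 77 TPM in the other 3 libraries of that label. Its gap to the nearest of them was 0.923 of the range, above the limit of 0.829 for 4 samples. Chance flags about 1 in 20 groups. This library is 1 of the 3 left out of the tests.

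CWINV3 changed differently at the end of secretion in the 2 species, with a log2 difference of -3.55 (SE 0.61, limma adjusted p = 0.00115). It fell in 3 of 3 herrerae post-secretory libraries below all secretory ones, and in procumbens it was listed at 0 in both secretory libraries, at 4 TPM in post-secretory B and at 0 in C.

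C/VIF2 rose more at the end of secretion in herrerae, by 1.94 (SE 0.59, limma adjusted p = 0.0303). All 3 herrerae post-secretory libraries (78 to 94 TPM) lay above the secretory ones (4 to 5 TPM), and both procumbens libraries (7 and 17 TPM) lay above theirs (3 and 3 TPM).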

How the results depend on the processing

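Of 41 calls, 30 kept their direction and call on the deposited scale of the 20 libraries, 24 with all 23 libraries rescaled and 17 with all 23 on the deposited scale. In 61 cases a sign changed between values of which neither was called, of which 25 were for CWINV1, 10 for VIN2 and 9 for CWINV4. The direction of a called value turned for VIN1 in the secretory species comparison (-0.35 on the deposited scale with 20 or all 23 libraries) and for CWINV2 in the post-secretory one (-0.33 on the deposited scale with all 23).

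The number of members called changed with all 23 libraries rescaled from 5 to 3 for the herrerae end of secretion, 2 to 0 for the procumbens onset, 3 to 0 for the procumbens end, 5 to 3 between secretory nectaries and 2 to 1 for the species difference in the end. With all 23 on the deposited scale it became 0 for the herrerae onset, 3 for its end and 0 for both procumbens stage comparisons. In that setting it became 2 for procumbens nectary against leaf and 0 for the end difference. Between species it became 2 for secretory nectaries, 2 for post-secretory nectaries and 1 for leaves. In each of these comparisons all loci also had fewer calls than on the rescaled values of the 20 libraries. For the procumbens end 0 of all loci were called, against 5003. On the deposited scale of the 20 libraries the number of members called became 1 for the procumbens onset, 3 and 2 for secretory and post-secretory nectaries between species. Over all loci 3121, 7603 and 6019 were called in these. The procumbens onset count of members was 1 without the 3 loci highest in herrerae nectaries, where all loci had 4534 calls. With the compared groups alone it was 0, where all loci had 9 calls. The end difference count of members was 1 with a pseudocount of 0.1 and 1 at a mean of at least 5 TPM, where all loci had 2502 and 2257 calls. Fits that left out 1 library were counted where at least 2 stayed in its group. They gave 0 to 2 members for the herrerae onset and 0 to 4 for the procumbens onset. Over all loci 3299 to 4038 and 2858 to 5605 were called. Between secretory nectaries they gave 3 to 5 members, and for the end difference 1 to 2. Over all loci 5750 to 6064 and 2031 to 2584 were called in these. With all 23 libraries rescaled, the loss was not particular to the members: 0 of all loci were called for the procumbens end, against 5003, and 376 for its onset, against 4652. In that setting 4220 were called for the herrerae end, 3448 between secretory nectaries and 243 for the end difference, against 7637, 6347 and 2727. The cause of these changes was not tested.

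Rescaling also moved levels: CWINV4 in procumbens secretory nectary to 2934, CWINV2 there to 1317, VIN1 there to 84.36, VIN2 in procumbens pre-secretory nectary to 21.68, CWINV3 and CINV2 in herrerae secretory nectary to 22.19 and 51.48, and C/VIF2 in herrerae post-secretory nectary to 76.72. The cell wall sums became 1506 in herrerae secretory nectary, 87.03 in herrerae leaf and 4252 in procumbens secretory nectary.

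Over 53 pairs with the same replicate letter, deviations from group means correlated at -0.395 to 0.243 (median 0.006), and 6 pairs were over 0.1. In groups of 2 libraries the deviations mirror each other, so these values cannot exclude a pairing of samples. Letters and the numbers in the titles run in a different order in the procumbens post-secretory group. Pairing by number was not tested. With the letter as a replicate block, 37 of the 41 calls held. For the procumbens onset 0 members were called with the block, where all loci fell from 4652 to 2250 calls. CWINV4 was then called for herrerae nectary against leaf (limma adjusted p = 0.00709), procumbens end of secretion (0.00359) and, between species, pre-secretory (-2.72, 0.0458) and secretory nectaries (0.00414), and CINV2 for the species difference in the end (-1.28, 0.0379).

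TPM holds no counts, so the limit of detection for members listed at 0 is unknown.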
